A study of Homo sapiens with 9 samples.

Results

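The replication-dependent histone genes encode the bulk histones that package newly made DNA. They were taken as the rows of the deposited TPM table whose symbol begins with HIST1H, HIST2H, HIST3H or HIST4H, which gave 73 of the 29972 genes listed. The rule uses names and no measured value. By class they are 6 linker histone H1 genes, 18 H2A, 20 H2B, 14 H3 and 15 H4 genes, and 3 of the rows, HIST1H2APS1, HIST2H2BA and HIST2H2BC, are pseudogenes.

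The libraries came from H2030, a human cell line established from a non-small cell lung cancer, transfected with siRNA at 20 nmol/L. ENAH encodes MENA, a protein that promotes growth of actin filaments and is made in several spliced forms. In the siMENA11a group the siRNAs were a custom mix lying within exon 11a of ENAH, in the siMENA group they were a pool against all ENAH isoforms, and in the control group they were a non-targeting pool. Each group held 3 libraries of ribosomal RNA-depleted, strand-specific total RNA. Whether separate cultures stand behind the 3 libraries of a group is not stated. The p-values set group differences against the variation among these libraries only, estimated with help from all genes tested, and that variation may be technical. The siMENA11a mix was custom made, and the siMENA and control pools belong to different reagent lines of their supplier. Reagent and target thus cannot be told apart in any of the 3 comparisons, and all cells are 1 line.

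Unlike nearly all other messenger RNAs, replication-dependent histone mRNAs do not end in a poly(A) tail. They end just past a short stem-loop that is bound by SLBP and trimmed with the help of the U7 snRNP, and they accumulate while DNA is copied in S phase and decay when copying stops. NPAT, a target of cyclin E and CDK2, activates their transcription at the clusters. Some members, among them HIST1H1C and HIST1H2BK, are also known to give polyadenylated transcripts.

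The stem-loop is shown because it is what sets these transcripts apart. In the GENCODE 29 transcript models a stem-loop of 16 letters was found for 33 members, including 31 of the 33 whose model runs at least 60 bases past the coding part. Its 6 letter forms are written below with the loop of 4 letters in capitals and the stem arms of 6 letters in lower case.
Form in 17 genes (6 H2A, 8 H2B, 3 H3): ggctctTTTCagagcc
Form in 5 genes (all H4): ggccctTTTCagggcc
Form in 3 genes (all H4): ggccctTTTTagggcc
Form in 5 genes (3 H2B, 2 H3): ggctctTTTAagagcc
Form in 2 genes (HIST1H2AG and HIST2H2BC): ggctctTTTCagggcc
Form in 1 gene (HIST1H3E): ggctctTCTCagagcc
All 8 H4 genes with a match carried arms in cct and agg next to the loop, while the matched H2B genes other than HIST2H2BC, and all matched H3 genes, carried tct and aga. A member without a match has a model that stops at or near the coding part in most cases, so nothing follows from its absence.

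The promoters of 3 H2B genes are shown because HIST1H2BG and HIST2H2BF moved in opposite directions under the 2 knockdowns, while HIST1H2BO was lower under both. Each run is the 250 bases before the transcription start, read 5′ to 3′ on the strand of the gene, from RefSeq on GRCh38.p14. HIST1H2BG lies at chr6:26216689-26216938 on the minus strand, HIST2H2BF at chr1:149812371-149812620 on the minus strand and HIST1H2BO at chr6:27893175-27893424 on the plus strand. Capitals mark TATAAA (the TATA box), CCAAT (the CCAAT box) and ATTTGCAT (the octamer bound by POU2F1, known as OCT1), searched on both strands.
HIST1H2BG: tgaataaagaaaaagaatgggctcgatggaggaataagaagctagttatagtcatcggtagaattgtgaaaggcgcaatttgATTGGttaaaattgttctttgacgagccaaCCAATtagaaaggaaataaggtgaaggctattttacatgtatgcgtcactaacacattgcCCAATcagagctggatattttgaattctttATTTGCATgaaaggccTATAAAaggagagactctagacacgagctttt
HIST2H2BF: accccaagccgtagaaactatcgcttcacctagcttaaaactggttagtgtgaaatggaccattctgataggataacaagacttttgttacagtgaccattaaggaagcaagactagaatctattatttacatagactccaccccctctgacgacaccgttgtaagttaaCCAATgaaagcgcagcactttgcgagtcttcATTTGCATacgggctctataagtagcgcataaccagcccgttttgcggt
HIST1H2BO: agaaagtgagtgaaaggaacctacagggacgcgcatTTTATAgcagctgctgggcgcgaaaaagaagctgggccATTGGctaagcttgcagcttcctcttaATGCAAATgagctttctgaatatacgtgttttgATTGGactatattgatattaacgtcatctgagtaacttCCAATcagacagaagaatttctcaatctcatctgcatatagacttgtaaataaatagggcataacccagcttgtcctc
In HIST1H2BG and HIST2H2BF the octamer began 48 and 49 bases before the start on the strand of the gene, with a CCAAT beginning 78 and 80 bases before it. HIST1H2BG also held TATAAA, beginning 32 bases before the start. In HIST1H2BO the octamer lay on the other strand, with its leftmost printed letter 149 bases before the start, and CCAAT began 78 bases before it. Only exact words were marked. Nearer the start, on the strand of the gene, HIST1H2BO reads atctgcat, which differs from the octamer in 1 letter. HIST1H2BO shares the printed stretch with HIST1H2AM, which is read the other way. All 73 members matched a RefSeq gene and 65 had a promoter window of 250 bases before to 50 after the start. Of these windows 26 held the octamer, 55 held CCAAT and 43 held TATAAA, against 1.77%, 34.6% and 11.5% of the 35116 promoter windows in the table. The octamer was in 11 of 16 H2A and 14 of 18 H2B windows, in 1 of 12 H3 windows and in 0 of 6 H1 and 0 of 13 H4 windows. CCAAT was in every H1, H2A, H2B and H3 window and in 3 of 13 H4 windows. The octamer was also in the windows of HIST1H2BC, HIST1H2BJ, HIST1H2BK and HIST2H2BE, which were called lower in both knockdowns. It is thus not particular to the genes that rose with siMENA. These matches describe letters and not bound sites.

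Levels are given as scaled TPM, which is the deposited TPM divided by a size factor per library so that the typical gene keeps the same level in every library. A gene was tested when its scaled TPM averaged 0.5 or more over the 9 libraries, which 13494 genes did, 47 of the 73 members among them. By class 3 H1, 13 H2A, 13 H2B, 7 H3 and 11 H4 genes were tested. The testis linker histone gene HIST1H1T lay just inside the filter at 0.633 and HIST1H2BE just outside it at 0.444. A further 11 members had a value above 0 in at least 1 library without reaching the filter. The remaining 15, among them HIST1H1B, HIST1H1D, HIST3H3 and 5 H3 genes of the large cluster, HIST1H3D, HIST1H3E, HIST1H3F, HIST1H3G and HIST1H3I, are listed at 0 in every library.

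Over the 9 libraries 30 members averaged 100 scaled TPM or more. The large cluster (HIST1, 33 of 56 members tested) held 71.6% of the summed level in control libraries and the HIST2 cluster (13 of 13 tested) held 27.6%. HIST4H4 held 0.795% and the 3 HIST3 genes are at 0. As listed, the control levels were led by the H3 gene HIST2H3C at 1094 ± 73.0 scaled TPM, the H2B gene HIST1H2BC at 979 ± 16.3 and the linker histone gene HIST1H1C at 916 ± 19.8 (SD, n = 3). HIST1H1C was below HIST1H2BC by more than their SDs. HIST2H3C is 1 of several copies with identical coding sequences whose single values are uncertain. Summed over such copies, HIST2H3A with HIST2H3C (1562 ± 37.7), HIST2H2AA3 with HIST2H2AA4 (1125 ± 14.6), HIST1H4J with HIST1H4K (1093 ± 74.8) and HIST2H4A with HIST2H4B (991.5 ± 25.1) all averaged above HIST1H2BC, the last of them by less than its SD.

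The whole family was lower in both knockdowns, and lower with siMENA11a than with siMENA. The summed scaled TPM of all 73 members was 8576, 8068 and 7306 in siMENA11a libraries, 11685, 11309 and 11616 in siMENA libraries, and 15634, 15723 and 16063 in control libraries. The 3 groups do not overlap, and library 3 is the lowest of the siMENA11a group. As a percentage of the control mean the sums averaged 50.5% ± 4.05 with siMENA11a and 73.0% ± 1.27 with siMENA (SD, n = 3). With 3 libraries a group, an exact test of a single sum cannot give a two-sided p below 0.1, so the sums are described and the tests are those of the single genes. Since these are bulk samples, fewer cells making histone mRNA and less of it per cell cannot be told apart.

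The class sums did not all stand at the same percentage of control. H3 was lowest with siMENA11a, at 43.7% ± 4.03 of control, followed by H4 at 46.9% ± 4.82, H2A at 51.8% ± 3.34, H2B at 54.7% ± 4.39 and H1 at 61.5% ± 3.31. With siMENA the linker histones were lowest, at 67.3% ± 1.41 of control, followed by H3 at 70.6% ± 2.48, H2A at 72.7% ± 0.805, H4 at 73.4% ± 2.94 and H2B at 77.1% ± 0.819. With siMENA11a the steps from H4 to H2A and from H2B to H1 exceeded the larger SD of the neighbours, and with siMENA those from H1 to H3 and from H4 to H2B did, while the other neighbours did not differ beyond their spread. The H1 sum was 909, 841 and 821 in siMENA11a libraries, 925, 960.3 and 927 in siMENA libraries and 1396, 1373 and 1408 in control libraries, so that on scaled TPM the knockdown groups lie next to each other. The gap depends on the scaling, since on TPM as deposited the H1 sum was 56.1% ± 1.54 of control with siMENA11a and 71.4% ± 1.90 with siMENA, and with small and structured RNAs left out it was 65.3% ± 2.66 and 73.3% ± 1.26. Nearly all of the H1 sum comes from HIST1H1C and HIST1H1E. HIST1H1C averaged 644 in siMENA11a, 633 in siMENA and 916 in control cells, and HIST1H1E averaged 211, 304 and 476. The higher H1 percentage with siMENA11a thus rests on HIST1H1C alone. The H4 sum was 2128, 2024 and 1739 in siMENA11a libraries, 3198, 2952 and 3063 in siMENA libraries, and 4089.6, 4230.5 and 4238 in control libraries, with a wide gap between every pair of groups.

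**Figure D1:**
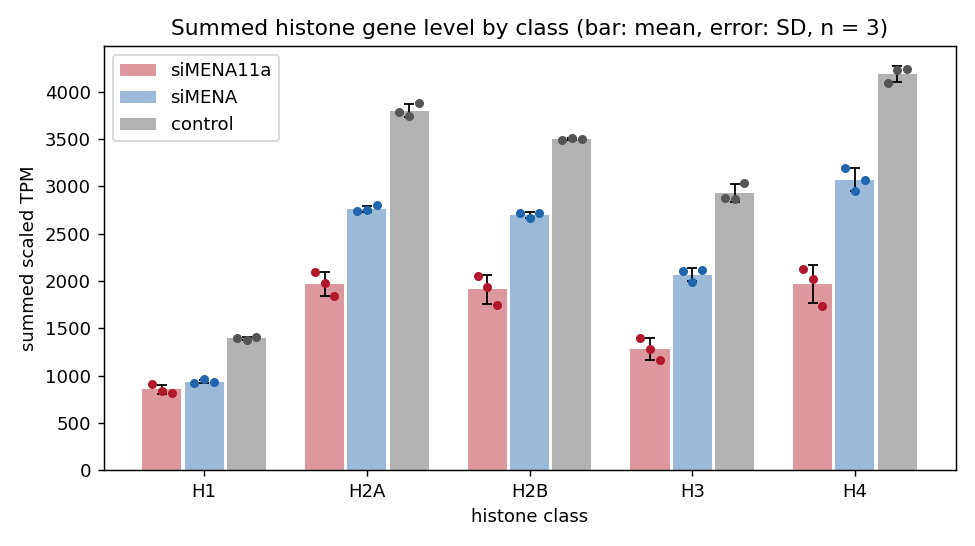
Summed scaled TPM of each histone class, one point per library, in siMENA11a, siMENA and control cells (bar: mean, error: SD). The H4 sums run from 1739 to 2128 in siMENA11a libraries, below every siMENA sum (2952 to 3198) and every control sum (4090 to 4238).

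The RN7SL RNAs, which are part of the signal recognition particle and not histones, took 44.3% to 45.2% of the deposited TPM in siMENA11a libraries, 39.6% to 40.6% in siMENA libraries and 39.7% to 41.1% in control libraries. The histone genes took 0.714% to 0.764%, 1.22% to 1.27% and 1.56% to 1.65% of it in the same order of groups. When small and structured RNAs were left out before the values were rescaled, the family sum was 53.6% ± 3.47 of control with siMENA11a and 79.4% ± 1.83 with siMENA.

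ENAH checks the siMENA label. Its scaled TPM was 46.4, 47.2 and 48.4 in siMENA11a libraries, 6.85, 7.26 and 7.45 in siMENA libraries, and 43.4, 43.0 and 44.5 in control libraries. It was lower in siMENA cells than in control cells by a log2 fold change of -2.52 ± 0.0379 (limma, adjusted p = 4.99e-10), and was 0.12 ± 0.0379 above control in siMENA11a cells (adjusted p = 0.0247). That siMENA11a difference was -0.01 on TPM as deposited, and its call ends without control library 1 or 2 or siMENA11a library 2 or 3 (adjusted p = 0.0596 to 0.0843). The gene row sums all isoforms, so it does not check the loss of exon 11a. Of 6 epithelial markers 4 had a mean of at least 0.5, and CDH1 and KRT19 did not. The epithelial sum was 314 to 328 in siMENA11a, 310.3 to 329.6 in siMENA and 354 to 366 in control libraries. KRT8 and KRT18 carried that sum, and the other detected markers did not follow it: EPCAM averaged 2.88 ± 0.372 in siMENA11a, 3.08 ± 0.273 in siMENA and 1.45 ± 0.229 in control cells, and KRT7 averaged 15.7 ± 0.657, 4.30 ± 0.223 and 9.88 ± 1.38 in the same order (SD, n = 3). Of 5 leukocyte markers CD3E is at 0 in every library and PTPRC reached at most 0.0657, while CD68 carried a sum of 125 to 131 in siMENA11a, 40.9 to 49.2 in siMENA and 96.9 to 104 in control libraries. The 5 fibroblast markers summed to 7.76 to 8.19 in siMENA11a, 15.3 to 17.1 in siMENA and 8.78 to 9.36 in control libraries, and the 5 endothelial markers to at most 0.584, 1.22 and 0.669 in the same order. The part of these markers in the results was not tested.

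Of the 47 tested genes, 38 fell in siMENA11a cells against control cells, 2 rose and 7 were not called, at an adjusted p under 0.05 in limma. Over all 13494 genes 27.7% were called lower, 27.9% higher and 55.6% in either direction. The median log2 fold change was -1.02 over the members and 0.01 over all genes. For 43 of the 47 the siMENA11a and control libraries did not overlap, against 62.9% of all genes. A fall of at least 2-fold was called for 21 members, against 186 of all genes tested, which is 1.38%. By class, 2 of 3 H1, 11 of 13 H2A, 11 of 13 H2B, 5 of 7 H3 and 9 of 11 H4 genes fell. The 7 genes not called were HIST2H2AA3, HIST2H2AA4, HIST2H4A, HIST2H4B, HIST2H3D and the pseudogenes HIST2H2BA and HIST2H2BC, all in the HIST2 cluster. The HIST2H2AA and HIST2H4 genes among them are copies with identical coding sequences, whose single values are uncertain. Summed over the copies, both pairs were called lower (-0.72 and -1.44), as described below.

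In siMENA cells against the same control libraries, 31 members fell, 4 rose and 12 were not called, against 25.8% of all genes lower, 23.7% higher and 49.5% in either direction. The median was -0.46 over the members and 0.01 over all genes, and under quantile normalisation the members' median was -0.25. The libraries did not overlap for 38 members, against 57.6% of all genes, and 0 members reached a called fall of 2-fold, against 1.3%. Falls were called for 2 of 3 H1, 10 of 13 H2A, 8 of 13 H2B, 4 of 7 H3 and 7 of 11 H4 genes. Both knockdowns are set against the same 3 control libraries, so their changes are not independent of each other. The 31 genes that fell with siMENA also fell with siMENA11a, 3 that fell with siMENA11a rose with siMENA, and 4 that fell with siMENA11a were not called with siMENA.

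Set directly against siMENA, siMENA11a cells had 35 members lower, 1 higher and 11 not called, against 29.2% of all genes lower, 29.5% higher and 58.7% in either direction. The median was -0.57 over the members. The libraries did not overlap for 36 members, against 65.1% of all genes, and 7 were at least 2-fold lower, against 1.62%. Of the 31 genes lower in both knockdowns, 27 were lower with siMENA11a than with siMENA, HIST1H2BK was higher, and HIST1H1C, HIST1H4K and HIST4H4 were not called. These exceptions depend on the scaling: on TPM as deposited HIST1H1C (-0.19, adjusted p = 0.00275), HIST1H4K (-0.20, adjusted p = 0.0393), HIST4H4 (-0.19, adjusted p = 0.0096) and HIST1H2BK (-0.11, adjusted p = 0.0434) were each called lower in siMENA11a than in siMENA cells (limma).

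**Figure D2:**
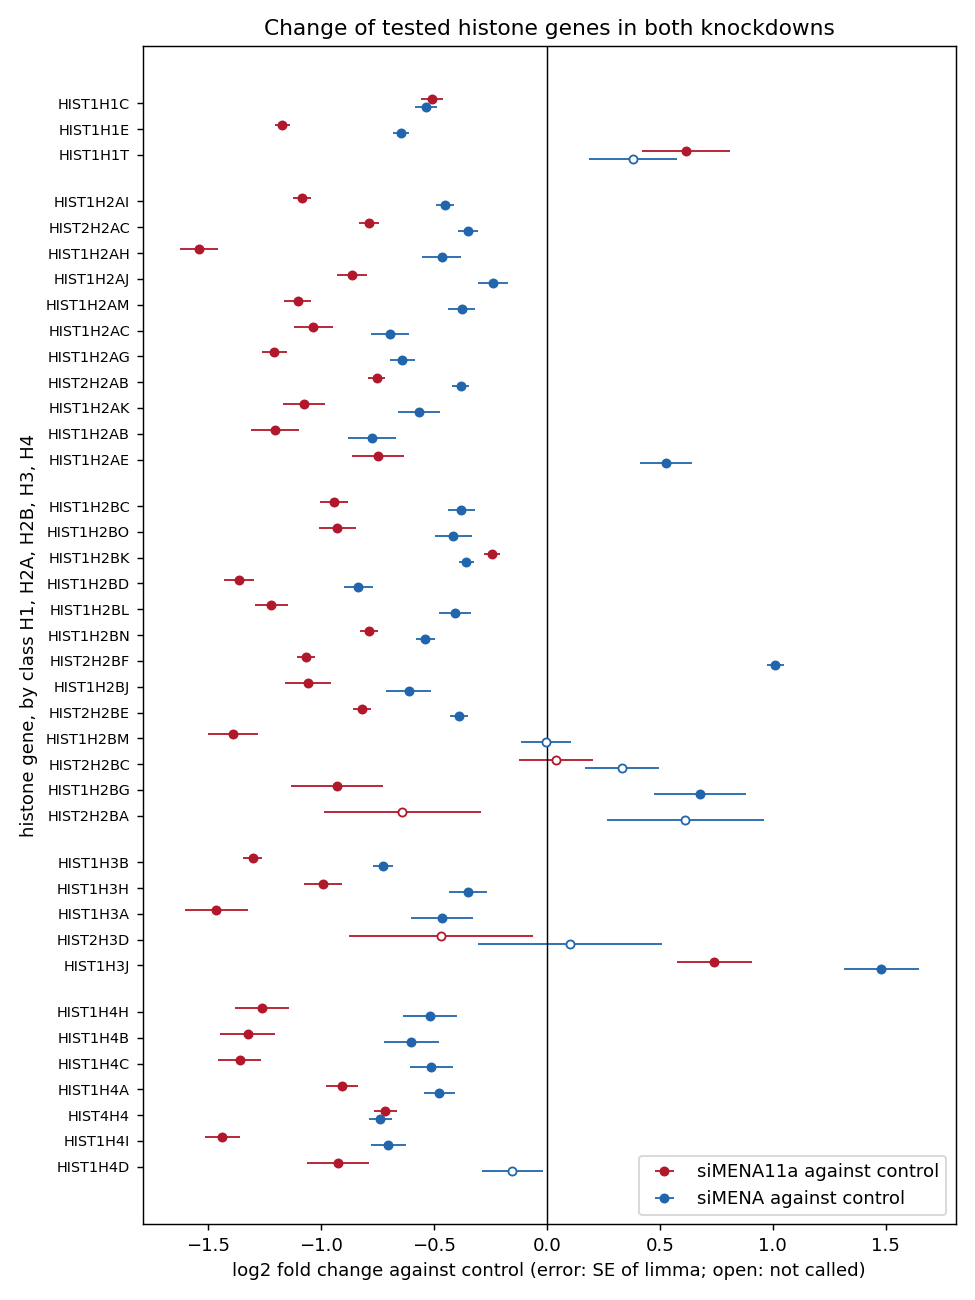
Log2 fold change against control of 39 tested histone genes in siMENA11a cells and in siMENA cells, grouped by class. Filled points passed the limma threshold, and copies with an identical coding sequence are left out. The siMENA11a points sit mostly near -1 and the siMENA points mostly near -0.5. HIST2H2BF, HIST1H2BG and HIST1H2AE lie above 0 with siMENA and below 0 with siMENA11a, as filled points. HIST2H2BA and HIST2H3D have the same signs as open points.

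Linker histone H1 binds the DNA between nucleosomes. HIST1H1C, its most abundant gene here, had 687, 630.4 and 615 scaled TPM in siMENA11a libraries, 615, 659 and 624 in siMENA libraries, and 925, 893 and 929.8 in control libraries. Both knockdown groups lie below control and overlap with each other. The log2 fold change was -0.51 ± 0.048 with siMENA11a (limma, adjusted p = 1.94e-05) and -0.53 ± 0.048 with siMENA (adjusted p = 1.94e-05), and 0.03 ± 0.048 between them (adjusted p = 0.674), which became a called -0.19 on TPM as deposited (adjusted p = 0.00275). HIST1H1E had 220.4, 209 and 204 in siMENA11a libraries, 310.1, 300.2 and 303 in siMENA libraries, and 470.0, 479 and 478 in control libraries. Here all 3 groups stand apart. HIST1H1E fell by 1.17 ± 0.0339 on the log2 scale with siMENA11a (adjusted p = 2.57e-08) and by 0.64 ± 0.0339 with siMENA (adjusted p = 8.02e-07). HIST1H1T, known from testis, had 0.629, 1.21 and 0.757 in siMENA11a, 0.594, 0.770 and 0.576 in siMENA and 0.530, 0.229 and 0.399 in control libraries. It rose with siMENA11a by 0.62 ± 0.196 (adjusted p = 0.0232), a call that ends without control library 2 (0.48, adjusted p = 0.08) or without siMENA11a library 2 (0.44, adjusted p = 0.0909).

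H2A and H2B pair as a dimer on the outside of the nucleosome. Among H2A genes HIST1H2AH, the lowest with siMENA11a, had 147, 126 and 110 scaled TPM in siMENA11a libraries, 275, 258 and 269.5 in siMENA libraries, and 373, 362 and 372 in control libraries. It fell by 1.54 ± 0.0857 with siMENA11a (limma, adjusted p = 7.48e-07) and by 0.46 ± 0.0857 with siMENA (adjusted p = 0.00163). HIST1H2AI, more abundant, had 242, 251 and 228 in siMENA11a libraries, 371, 382 and 367 in siMENA libraries, and 518, 497 and 514 in control libraries. Its groups stand in the same order without overlap, with log2 fold changes of -1.08 ± 0.0394 and -0.45 ± 0.0394 in siMENA11a and siMENA cells. HIST2H2AC of the HIST2 cluster had 213, 201 and 191 in siMENA11a libraries, 274, 267 and 280.0 in siMENA libraries, and 355, 335 and 355 in control libraries, with changes of -0.79 ± 0.0443 and -0.35 ± 0.0443.

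The H2B gene with the highest level, HIST1H2BC, had 546, 521 and 465 in siMENA11a libraries, 771, 709 and 782 in siMENA libraries, and 961, 992 and 985 in control libraries. It fell by 0.94 ± 0.0605 with siMENA11a (limma, adjusted p = 1.81e-06) and by 0.38 ± 0.0605 with siMENA (adjusted p = 0.000699). HIST1H2BD had 193, 190 and 159 in siMENA11a libraries, 265, 256 and 258 in siMENA libraries, and 471, 449.5 and 470.5 in control libraries. It was the H2B gene that fell most with siMENA, at -0.83 ± 0.0654, with -1.36 ± 0.0654 in siMENA11a cells. HIST1H2BK had 439, 425 and 409 in siMENA11a libraries, 389, 397 and 391 in siMENA libraries, and 509, 509 and 489 in control libraries. It fell least among the called genes with siMENA11a (-0.24 ± 0.0348, adjusted p = 0.000277) and more with siMENA (-0.35 ± 0.0348, adjusted p = 3.3e-05). HIST1H2BK was the 1 member called higher in siMENA11a than in siMENA, by 0.11 ± 0.0348 (adjusted p = 0.02). On TPM as deposited it was called in the opposite direction (-0.11, adjusted p = 0.0434). The call ends with small and structured RNAs left out (0.08, adjusted p = 0.0514) and without siMENA11a library 1 or 2 or siMENA library 1 or 3 (adjusted p = 0.0525 to 0.0684). The gene overlaps HIST1H4I in the annotation.

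HIST1H2BM behaved differently with siMENA. Its level was 22.3, 19.2 and 15.1 in siMENA11a libraries, 46.7, 51.1 and 50.6 in siMENA libraries, and 50.6, 48.0 and 50.2 in control libraries. The siMENA and control libraries overlap, with a log2 fold change of -0.003 ± 0.111 (limma, adjusted p = 0.985), while siMENA11a cells were at -1.39 ± 0.111 against control (adjusted p = 6.76e-06). The pseudogene HIST2H2BC had 10.9, 18.4 and 12.1 in siMENA11a, 14.4, 18.8 and 16.8 in siMENA and 12.7, 12.7 and 13.8 in control libraries and was called in none of the 3 comparisons. That depends on the settings. HIST2H2BC was called lower in siMENA11a than in siMENA on TPM as deposited (-0.50, adjusted p = 0.0194) and without siMENA11a library 2, its highest there (-0.51, adjusted p = 0.0026). It was called higher in siMENA than in control cells without that library (0.33, adjusted p = 0.0146), in a fit of those 2 groups alone (adjusted p = 0.0274) and with small and structured RNAs left out (0.46, adjusted p = 0.0309).

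The H2A and H2B genes HIST2H2BF, HIST1H2AE and HIST1H2BG fell with siMENA11a and rose with siMENA. The pseudogene HIST2H2BA, at a mean of 1.42, had the same signs (-0.64 and 0.61) but was not called against control. It was called lower in siMENA11a than in siMENA cells (-1.25, limma adjusted p = 0.0113). HIST2H2BF, from the HIST2 cluster, had 43.4, 46.6 and 46.3 scaled TPM in siMENA11a libraries, 193, 191 and 196 in siMENA libraries, and 97.8, 91.5 and 97.8 in control libraries. The groups lie far apart. HIST2H2BF fell by 1.07 ± 0.0385 with siMENA11a (limma, adjusted p = 8.16e-08) and rose by 1.01 ± 0.0385 with siMENA (adjusted p = 1.6e-07), and the direct comparison was -2.08 ± 0.0385 (adjusted p = 1.15e-09). Its row sums 5 transcripts, so the transcripts that moved cannot be told from the gene value. HIST1H2AE had 11.0, 14.2 and 12.3 in siMENA11a libraries, 30.9, 31.6 and 30.1 in siMENA libraries, and 23.5, 17.5 and 23.3 in control libraries. HIST1H2AE stood at -0.75 ± 0.116 with siMENA11a (adjusted p = 0.000452), 0.53 ± 0.116 with siMENA (adjusted p = 0.00423) and -1.27 ± 0.116 between them (adjusted p = 1.03e-05). HIST1H2BG had 5.20, 2.85 and 4.26 in siMENA11a libraries, 17.0, 12.4 and 10.8 in siMENA libraries, and 7.13, 8.19 and 8.92 in control libraries. It stood at -0.93 ± 0.203 with siMENA11a (adjusted p = 0.00356) and 0.68 ± 0.203 with siMENA (adjusted p = 0.0203), and at -1.61 ± 0.203 between them (adjusted p = 9.91e-05). The siMENA call ends without control library 1 (0.60, adjusted p = 0.068) or without siMENA library 1 (0.50, adjusted p = 0.0719).

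**Figure D3:**
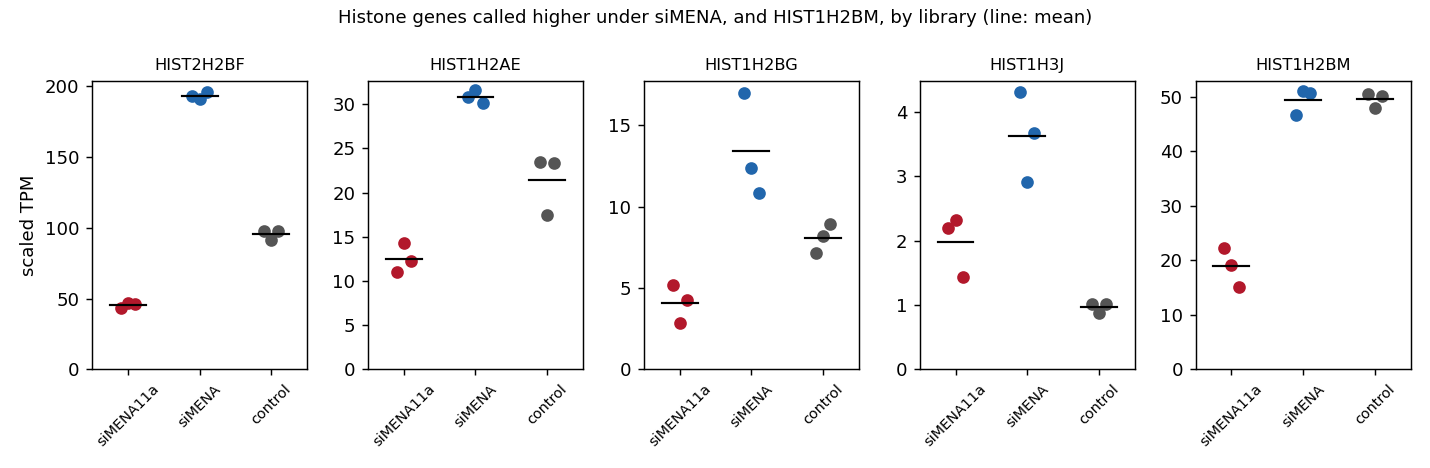
Scaled TPM per library of HIST2H2BF, HIST1H2AE, HIST1H2BG, HIST1H3J and HIST1H2BM in siMENA11a, siMENA and control cells. HIST2H2BF reads 191 to 196 in siMENA libraries, above the control values of 91.5 to 97.8, while its siMENA11a values of 43.4 to 46.6 lie below them.

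HIST1H2BG and HIST1H2AE are transcribed away from each other from starts 233 bases apart, and the window of HIST1H2BG printed above spans the space between them. Starts were taken only from the 65 members with a promoter window, so the others, HIST1H2AH among them, could not be paired. Among head-to-head pairs with starts within 1000 bases, 13 were listed and 8 had both genes tested. Each of the 8 was an H2A with an H2B gene, with 194 to 248 bases between the starts. Both genes fell with siMENA11a in 8 of 8 pairs. With siMENA both fell in 6 of 8, both rose in the HIST1H2BG and HIST1H2AE pair, and in the HIST1H2AJ and HIST1H2BM pair the H2A gene fell (-0.24) and the H2B gene was not called (-0.003). That HIST1H2AJ call ends without siMENA library 1 (-0.21, limma adjusted p = 0.0508), and under quantile normalisation HIST1H2AJ stood at -0.01 (adjusted p = 0.891). In the classes as a whole, 11 of 13 H2A and 11 of 13 H2B genes fell with siMENA11a. With siMENA 10 of 13 and 8 of 13 fell. Over all genes 27.7% and 25.8% were called lower. Whether paired genes moved together more than other members was not tested. HIST1H2BO fell by 0.93 ± 0.0807 with siMENA11a and by 0.41 ± 0.0807 with siMENA, and its partner HIST1H2AM fell by 1.10 ± 0.059 and by 0.38 ± 0.059.

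H3 and H4 form the central tetramer of the nucleosome. HIST1H3B had 308, 287 and 275 scaled TPM in siMENA11a libraries, 427, 436 and 433 in siMENA libraries, and 699, 707 and 738 in control libraries. It fell by 1.30 ± 0.0439 with siMENA11a (limma, adjusted p = 6.12e-08) and by 0.73 ± 0.0439 with siMENA (adjusted p = 1.7e-06), the lowest H3 value there. HIST1H3H had 333, 308 and 259 in siMENA11a libraries, 477, 446 and 478 in siMENA libraries, and 573, 574 and 636 in control libraries. Its changes were -0.99 ± 0.0839 with siMENA11a and -0.35 ± 0.0839 with siMENA. HIST1H3J, at the low end, was the 1 member that rose in both knockdowns, with 2.19, 2.32 and 1.43 in siMENA11a libraries, 4.31, 2.90 and 3.66 in siMENA libraries, and 1.01, 0.870 and 1.02 in control libraries. Its log2 fold changes were 0.74 ± 0.165 (adjusted p = 0.00393) and 1.48 ± 0.165 (adjusted p = 7.59e-05), which understate the change of a gene this low because 0.5 was added before the logarithm.

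Among H4 genes HIST1H4H had 325, 286 and 218 scaled TPM in siMENA11a libraries, 477, 426 and 467 in siMENA libraries, and 637, 672 and 649.7 in control libraries, with changes of -1.26 ± 0.118 (limma, adjusted p = 1.9e-05) and -0.52 ± 0.118 (adjusted p = 0.00537). HIST1H4I fell by 1.43 ± 0.0764 with siMENA11a (adjusted p = 5.72e-07) and by 0.70 ± 0.0764 with siMENA (adjusted p = 6.44e-05). HIST4H4, which lies alone outside the clusters, had 76.6, 81.5 and 71.5 in siMENA11a libraries, 72.4, 79.7 and 73.7 in siMENA libraries, and 125, 127 and 124 in control libraries. It fell by 0.71 ± 0.051 and 0.74 ± 0.051 in siMENA11a and siMENA cells, and the knockdowns were not called against each other (0.02 ± 0.051, adjusted p = 0.722), except on TPM as deposited (-0.19, adjusted p = 0.0096). HIST1H4D was not called with siMENA (-0.15 ± 0.136, adjusted p = 0.388), but was without control library 2 (-0.32, adjusted p = 0.0308).

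Some histone genes are copies that the deposited values may split. The tested members share on average most of their coding letters (median identity 85.3% over 46 equal-length H2A pairs, 90.2% over 55 H2B, 84.6% over 21 H3 and 83.5% over 55 H4 pairs), and 4 pairs have identical coding sequences. These are HIST2H2AA3 with HIST2H2AA4, HIST2H3A with HIST2H3C, HIST2H4A with HIST2H4B, and HIST1H4J with HIST1H4K. In the HIST2H4 and HIST2H2AA pairs the higher copy differed between libraries: HIST2H4A and HIST2H4B had 931.7 and 0.0377 in siMENA library 1, but 0 and 986 in control library 1. HIST2H3C exceeded HIST2H3A and HIST1H4K exceeded HIST1H4J in all 9 libraries. The values of such single copies are therefore uncertain, and sums over the pair were tested, a step chosen after the data were seen.

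For HIST2H4A and HIST2H4B together the level was 395, 373 and 330.1 in siMENA11a libraries, 932, 869 and 898 in siMENA libraries, and 986, 1019 and 969.8 in control libraries. The siMENA11a libraries lie far below the others, with -1.44 ± 0.0611 against control (limma, adjusted p = 1.45e-07) and -1.30 ± 0.0611 against siMENA (adjusted p = 1.63e-07), while siMENA was not called against control (-0.14 ± 0.0611, adjusted p = 0.0841). HIST2H3A and HIST2H3C together averaged 668 ± 59.7 in siMENA11a, 1123 ± 52.0 in siMENA and 1562 ± 37.7 in control cells (SD, n = 3), with changes of -1.23 ± 0.0635 and -0.48 ± 0.0635 against control. The pair HIST2H2AA3 and HIST2H2AA4 averaged 684 ± 43.2, 794 ± 16.8 and 1125 ± 14.6 in the same order, with -0.72 ± 0.0463 and -0.50 ± 0.0463. HIST1H4J and HIST1H4K together averaged 680.1 ± 41.1, 734 ± 14.6 and 1093 ± 74.8, with -0.68 ± 0.0578 and -0.57 ± 0.0578, and were not called between the knockdowns (-0.11 ± 0.0578, adjusted p = 0.123). Summed this way, 4 of 4 pairs fell with siMENA11a and 3 of 4 fell with siMENA. In the main fit 27.7% and 25.8% of all genes were called lower.

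**Figure D4:**
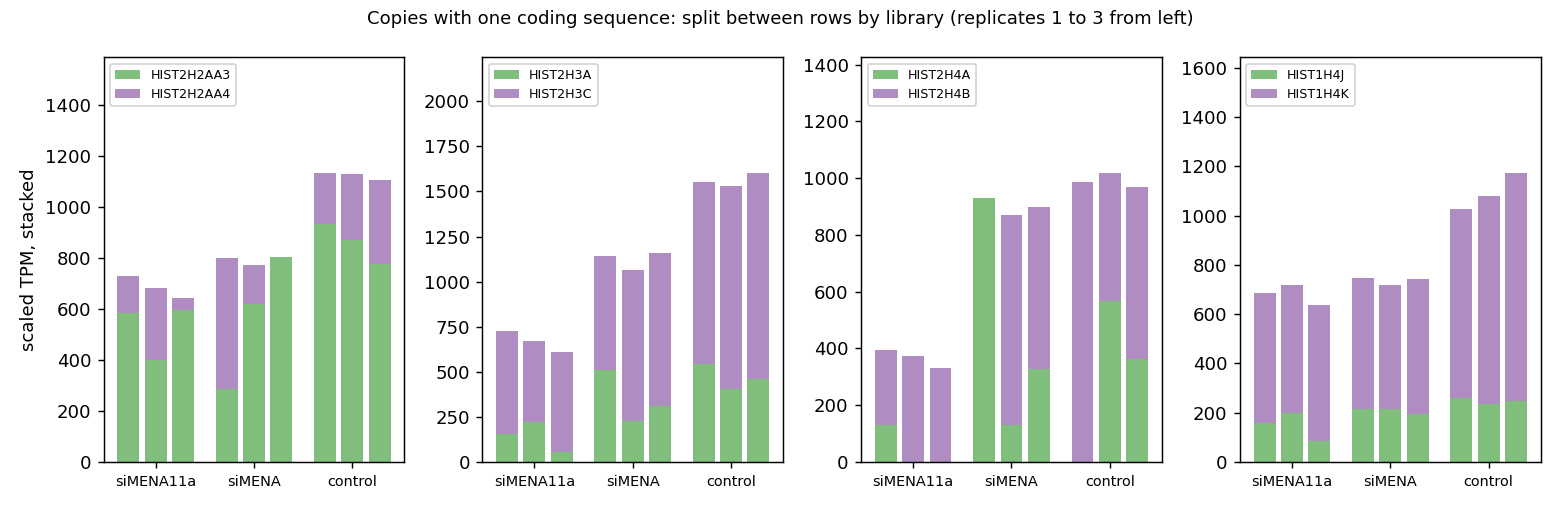
Scaled TPM per library of the copies that share a coding sequence, stacked so that the height of each bar is the sum over the copies. The split within a bar moves between libraries of 1 group, and the summed HIST2H4A and HIST2H4B bars read 330 to 395 in siMENA11a, 869 to 932 in siMENA and 970 to 1019 in control libraries.

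Genes around histone supply were described from fixed lists. Of 30 tested factors for histone gene transcription and 3′ end processing, 15 fell and 3 rose with siMENA11a and 11 fell and 9 rose with siMENA, with medians of -0.16 and -0.09. Over all genes 27.7% were lower and 27.9% higher with siMENA11a, and 25.8% and 23.7% with siMENA, so the siMENA counts are near the background. On TPM as deposited 5 of them fell with siMENA, where 2300 of the 13476 genes tested were lower. SLBP, the stem-loop binding protein, had 17.4, 17.0 and 16.5 scaled TPM in siMENA11a libraries, 17.9, 19.6 and 18.7 in siMENA libraries, and 22.0, 22.7 and 21.0 in control libraries. It fell by 0.36 ± 0.0456 and by 0.22 ± 0.0456 in siMENA11a and siMENA cells (limma, adjusted p = 0.000141 and 0.00315), and its siMENA call ends on TPM as deposited (-0.14, adjusted p = 0.0835). NPAT fell by 0.18 ± 0.0569 with siMENA11a (adjusted p = 0.0236) and was not called with siMENA (-0.07, adjusted p = 0.37). The siMENA11a call of NPAT ends with small and structured RNAs left out (-0.11, adjusted p = 0.209) and without control library 2 or siMENA11a library 1 or 3 (adjusted p = 0.0628 to 0.0883). CSTF2, a cleavage factor of 3′ ends, fell by 0.70 and 0.38, and CDK2, the kinase that pairs with cyclin E, by 0.59 and 0.36. CCNE1, which encodes cyclin E1, had 9.85, 9.39 and 9.48 in siMENA11a libraries, 18.7, 14.9 and 16.4 in siMENA libraries, and 10.7, 10.0 and 9.09 in control libraries. It rose by 0.71 ± 0.082 with siMENA (adjusted p = 9.22e-05) and was not called with siMENA11a (-0.05, adjusted p = 0.632). CCNA2, cyclin A2 of S and G2 phase, fell by 0.49 with siMENA11a and 0.58 with siMENA.

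DNA replication genes fell in both knockdowns, 40 of 42 with siMENA11a and 34 of 42 with siMENA, with 1 higher in each and medians of -0.53 and -0.28, against 27.7% and 25.8% of all genes lower. DNMT1, the maintenance DNA methyltransferase, had 25.2, 22.6 and 22.7 scaled TPM in siMENA11a libraries, 39.9, 39.4 and 40.1 in siMENA libraries, and 50.8, 50.3 and 49.2 in control libraries. It fell by 1.08 ± 0.0429 and 0.33 ± 0.0429 in siMENA11a and siMENA cells (limma, adjusted p = 1.18e-07 and 0.000201). GINS2, part of the replicative helicase, fell by 1.14 ± 0.0575 and 0.45 ± 0.0575, and MCM7 of the same helicase by 0.65 ± 0.0337 and 0.23 ± 0.0337. TYMS, thymidylate synthase, fell more with siMENA (-0.96 ± 0.0508) than with siMENA11a (-0.53 ± 0.0508), and the direct comparison was 0.43 ± 0.0508 (adjusted p = 6.23e-05).

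Many histone variants, though not all of them, are made through the cell cycle from polyadenylated mRNAs. Of 10 tested variants 7 fell and 1 rose with siMENA11a and 6 fell and 2 rose with siMENA, with medians of -0.24 and -0.19, against 27.7% and 25.8% of all genes lower and 27.9% and 23.7% higher. The variant higher with siMENA11a was H3F3B, which encodes H3.3 as H3F3A does, at 0.13 ± 0.0476 (limma, adjusted p = 0.0469). Its call ends without control library 3 or any 1 siMENA11a or siMENA library (adjusted p = 0.0511 to 0.135), and it was -0.0064 on TPM as deposited. H3F3A was not called in siMENA11a or siMENA cells (0.01 ± 0.0552 and 0.04 ± 0.0552), although with small and structured RNAs left out it was called higher with siMENA (0.16, adjusted p = 0.0302). H2AFZ, which encodes H2A.Z, fell by 0.27 ± 0.0513 with siMENA11a, a call that ends under quantile normalisation (adjusted p = 0.0737), and by 0.50 ± 0.0513 with siMENA. H1F0, a linker variant of resting cells, fell by 0.18 ± 0.0444 with siMENA11a, a call that ends with small and structured RNAs left out (adjusted p = 0.077), and by 0.64 ± 0.0444 with siMENA. CENPA, the centromeric H3 variant, fell by 0.63 ± 0.0514 with siMENA11a and was not called with siMENA (-0.12 ± 0.0514, adjusted p = 0.0781), except without control library 3 (-0.18, adjusted p = 0.00872). Among 25 tested histone chaperones 12 fell and 5 rose with siMENA11a and 14 fell and 1 rose with siMENA, with medians of -0.13 and -0.14, against 27.7% and 25.8% of all genes lower and 27.9% and 23.7% higher. On TPM as deposited 8 of them fell with siMENA, where 2300 of the 13476 genes tested were lower. DNAJC9, a chaperone of H3 and H4, fell by 0.89 ± 0.0402 and 0.30 ± 0.0402, and SSRP1 of the FACT complex by 0.72 ± 0.0325 and 0.14 ± 0.0325, the siMENA call of SSRP1 ending on TPM as deposited (-0.05, adjusted p = 0.258).

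Small structured RNAs, which like histone mRNAs have no poly(A) tail, gave 0 lower and 2 higher of 12 tested with siMENA11a and 1 lower and 1 higher with siMENA, with medians of 0.21 and -0.01. These shares lie below the 27.7% lower and 27.9% higher of all genes with siMENA11a and the 25.8% and 23.7% with siMENA. TERC, the RNA of telomerase, rose by 0.18 ± 0.0526 with siMENA11a (limma, adjusted p = 0.015) and by 0.39 ± 0.0526 with siMENA (adjusted p = 0.00025). Whether these 2 calls of TERC hold on the other scalings was not tested.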

How the data were processed

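H2030 libraries of 3 groups (siMENA11a, siMENA and control, 3 each) were compared. The deposited values are TPM per gene, rounded to 2 decimals, in a table whose columns name the samples. Per the file headers they are gene-level TPM with RefSeq transcript names, and per the submitters' processing notes kallisto and GRCh37 are named, with no role given. The counting step and its strand setting are not given in the sources consulted. Depth cannot be read back from TPM, so the depth behind each value is unknown. TPM were divided by median-of-ratios size factors from 12341 genes with a mean of at least 1 TPM. Genes with a mean of at least 0.5 scaled TPM were fitted as log2(scaled TPM + 0.5) with limma 3.58.1 (R 4.3.3, trend, all 3 groups in 1 fit). P-values were adjusted by Benjamini-Hochberg over all 13494 genes, and a gene was called at an adjusted p under 0.05. Fold changes are on that log2 scale, with standard errors. The script was tested on simulated data. The members and lists were chosen with earlier results of these data known. Named genes were the 3 most abundant members per class, the extremes of each comparison, members not called or called against their class, and the leading genes of each list. HIST1H4D, HIST1H4I, HIST4H4 and the head-to-head partners were named after their values were seen. Alternatives were other pseudocounts, filters, scalings, fits and each library left out. The labels state no pairing by replicate number, and the main fit used none. A marker gene of the lists is not reported here.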

Additional observations from a re-analysis of the deposited data

Results flagged for a closer look

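HIST2H2BF, HIST1H2BG and HIST1H2AE moved in opposite directions in the 2 knockdowns. They were picked as members called in opposite directions against control and also called between the knockdowns with limma. The direct call was thus part of the choice and is no separate evidence. The log2 fold change of siMENA11a against siMENA was -2.08 for HIST2H2BF, -1.61 for HIST1H2BG and -1.27 for HIST1H2AE. Each was lower than control in siMENA11a cells and higher than control in siMENA cells, with no overlap between the libraries of any pair of groups. Such a lack of overlap was seen for 62.9% of all genes in siMENA11a against control. The share was 57.6% in siMENA against control and 65.1% in siMENA11a against siMENA.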

How the results depend on the processing

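Over the alternatives other than leaving out a library, 37 to 40 members were lower and 0 to 2 higher in siMENA11a cells against control, 28 to 32 lower and 3 to 5 higher in siMENA cells against control, and 33 to 42 lower and 0 to 1 higher with siMENA11a against siMENA. The number of members tested was not the same in all of these alternatives. It was 58 with no filter, 50 with small and structured RNAs left out and 43 at a filter at a mean of 5. With copies summed it was 39 single members beside the summed pairs, and elsewhere it was 47. With each library left out in turn 47 were tested, and the ranges were 38 to 40 and 1 to 2, 30 to 32 and 3 to 5, and 34 to 37 and 0 to 1. The count of 0 higher members arose at a filter at a mean of 5 for siMENA11a against control, which removes HIST1H1T (mean 0.633) and HIST1H3J (mean 2.19). It also arose on TPM as deposited and with small and structured RNAs left out for siMENA11a against siMENA, where the cause was not tested. Scaling moved the median of all genes to -0.11 (siMENA11a), 0.09 (siMENA) and -0.20 (siMENA11a against siMENA) on TPM as deposited and to 0.10, 0.13 and -0.03 with small and structured RNAs left out, and the median of the members to -1.15, -0.38 and -0.78 and to -0.90, -0.31 and -0.60. Under quantile normalisation the medians of the members were -0.91, -0.25 and -0.65. On TPM as deposited 4904 genes were lower and 1965 higher with siMENA11a, 2300 and 3979 with siMENA, and 6321 and 2030 with siMENA11a against siMENA, against 3733 and 3769, 3478 and 3196, and 3937 and 3983 on scaled TPM. With small and structured RNAs left out, 2880 were lower and 5119 higher with siMENA11a and 2304 and 5283 with siMENA. With siMENA11a against siMENA 4447 were lower and 3741 higher in that setting. Genes tested numbered 13476 on TPM as deposited, 13494 on scaled TPM and 14639 with small and structured RNAs left out.

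On TPM as deposited the class sums in siMENA11a cells were 46.0% of control for all members, 56.1% for H1, 47.2% for H2A and 49.8% for H2B, and in siMENA cells 77.4% for all, 71.4% for H1, 77.1% for H2A, 81.8% for H2B, 74.9% for H3 and 77.8% for H4. With small and structured RNAs left out the H1 sum was 65.3% in siMENA11a cells, and the siMENA sums were 79.4% for all, 73.3% for H1, 79.1% for H2A, 83.9% for H2B, 76.8% for H3 and 79.9% for H4. Histone expression factors called lower with siMENA numbered 5 on TPM as deposited and 4 with small and structured RNAs left out, and chaperones 8 and 7. Of all genes tested, 2300 of 13476 and 2304 of 14639 were lower with siMENA in these settings. Structured RNAs called lower numbered 1 with siMENA11a on TPM as deposited and 0 with siMENA under quantile normalisation, and 0 to 1 in each with a library left out. On TPM as deposited the log2 fold change turned to -0.014 for ENAH and -0.0064 for H3F3B with siMENA11a against control, and to -0.19 for HIST1H1C, -0.11 for HIST1H2BK, -0.20 for HIST1H4K and -0.19 for HIST4H4 with siMENA11a against siMENA, each of these 4 called lower there. H2AFX with siMENA against control turned to 0.0042 with small and structured RNAs left out and to 0.022 under quantile normalisation. HIST2H4B, a single copy, ran between -1.03 and 4.19 with siMENA11a against siMENA when a library was left out. Samples with the same replicate number correlated at -0.065 to 0.059 in their deviations, and those with different numbers at -0.064 to 0.102. No shared replicate effect was seen, which cannot show whether the samples were paired. With the replicate block 38 members were lower and 2 higher in siMENA11a cells against control. The alternatives for the companion genes and the summing of copies were chosen after seeing the data. TPM holds no counts, so no interval from depth can be given.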
